A study of Homo sapiens with 24 samples.

Results

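The comparison described here set 3 RNA-seq libraries of UHRF1-AID cells at day 4 against 3 libraries of DNMT1-AID cells at day 4. These 6 libraries were chosen by their labels from the 24 of the series. All were made from HCT116, an established human colorectal carcinoma line that carries an OsTIR1 gene inducible by doxycycline. UHRF1-AID cells carry an auxin-inducible degron with mClover at the C-terminus of the endogenous UHRF1 protein. DNMT1-AID cells carry the degron with mRuby2 at the N-terminus of DNMT1. Both groups received 2 µg/mL doxycycline with 20 µM auxinole, an inhibitor of OsTIR1, for 1 day, and then 2 µg/mL doxycycline with 500 µM auxin for 4 days, during which the tagged protein is degraded. The untagged parental line (WT) and a line with both degrons (UHRF1-AID/DNMT1-AID) went through the same steps, and every line was also collected at day 0. By the study's reporting summary, biological replicates of each degron line came from 3 different clones, so p-values set the lines against the spread between clones. The labels give replicate numbers without naming a clone.

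UHRF1 and DNMT1 act in the same pathway, the copying of CpG methylation onto new DNA after replication. UHRF1 binds hemimethylated CpG sites and ubiquitinates histone H3, which recruits and activates the methyltransferase DNMT1. Methylation of CpG-rich promoters keeps many germline genes, including the cancer/testis genes of the X chromosome, silent in somatic cells, and colorectal tumour cells also silence further genes in this way. The comparison asks whether loss of UHRF1 and loss of DNMT1 leave the same transcriptome.

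The 3 UHRF1-AID libraries held between 17776768 and 19991383 counts on genes, and the 3 DNMT1-AID libraries between 15824804 and 16987046. The groups also differed in how they were handled. The file headers name one alignment folder for UHRF1-AID day 4 and all day 0 libraries, and another for DNMT1-AID, WT and UHRF1-AID/DNMT1-AID at day 4, so the folder and the depleted protein cannot be told apart in this comparison. ERCC spike-in sequences took 0% of counts in each UHRF1-AID day 4 library and 1.34% to 1.41% in the DNMT1-AID day 4 libraries. Mitochondrially encoded genes took 2.29% to 2.78% of gene counts in UHRF1-AID and 4.03% to 4.29% in DNMT1-AID. UHRF1-AID replicate 2 stood apart in a trend with gene length: its deviation from the mean of all 6 libraries had a Spearman correlation with exon length of -0.209 across 14080 genes, against 0.269 and 0.200 in replicates 1 and 3. The colon and epithelial markers EPCAM, CDH1, KRT8, KRT18 and KRT19 were present in both groups, with means from 143 to 3464 CPM (counts per 1000000, scaled by TMM). Of the 10 such markers, 8 were tested, with a median log2 fold change of UHRF1-AID over DNMT1-AID of -0.26. CDX1, an intestinal transcription factor gene, was the 1 called, higher in UHRF1-AID at 0.910 ± 0.186 CPM against 0.102 ± 0.0913 CPM (adjusted p = 0.0184), while VIL1 and LGALS4 failed the filter on low counts, with means of at most 0.483 CPM. CDX1 passed that filter only through its level in UHRF1-AID. Of 18 markers of other cell types, 13 failed the filter on low counts, PTPRC, CD3E, CD14, COL3A1 and HBB among them, and COL1A2 had no count in any of the 6 libraries. Their summed level was 29.3 to 37.3 CPM in UHRF1-AID and 21.8 to 25.7 CPM in DNMT1-AID, most of it from DES, a muscle intermediate filament gene called higher in UHRF1-AID, and COL1A1. The part of these differences in the results was not tested.

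The transcripts of the tagged genes came first, because the degron acts on the protein and leaves the transcript to be measured. UHRF1 transcript was at 40.2, 35.0 and 82.9 CPM in the UHRF1-AID libraries and at 39.6, 37.3 and 32.7 CPM in the DNMT1-AID libraries. The groups overlapped, and the log2 fold change of UHRF1-AID over DNMT1-AID was 0.49 ± 0.30 (SE; adjusted p = 0.302). DNMT1 transcript was at 37.4, 26.9 and 65.0 CPM in UHRF1-AID and at 16.5, 13.1 and 16.1 CPM in DNMT1-AID, with no overlap. The difference was 1.46 ± 0.29 on the log2 scale (adjusted p = 0.0151), and the call was lost without DNMT1-AID replicate 2 or 3, where the adjusted p reached 0.0663. Before auxin, the UHRF1-AID line held 182 ± 12.1 CPM (SD, n = 3) of it and the DNMT1-AID line 44.7 ± 25.4 CPM (adjusted p = 0.236), and the line with both degrons was at 12.3 ± 2.69 CPM at day 4.

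Of 14080 genes tested, 406 were called higher in UHRF1-AID than in DNMT1-AID, which is 2.88% of the genes tested, and 342 were called lower, which is 2.43%. Calls needed an adjusted p below 0.05 in edgeR's quasi-likelihood test and a log2 fold change over 1 in size. The 3 libraries of one group lay entirely above those of the other for 403 of the 406 higher genes and for all 342 lower genes; over all genes tested, 21.3% lay entirely above in UHRF1-AID and 15.6% entirely below. The median log2 fold change of all genes was 0.01. The higher calls made up 54.3% of all calls, and 42.5% after a trend with gene length was removed, a step that also moved the median of all genes to -0.13. The genes called higher were mostly weakly expressed, with a median of 3.14 CPM in UHRF1-AID and 0.634 CPM in DNMT1-AID, whereas the genes called lower had medians of 7.17 and 19.4 CPM.

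**Figure D1:**
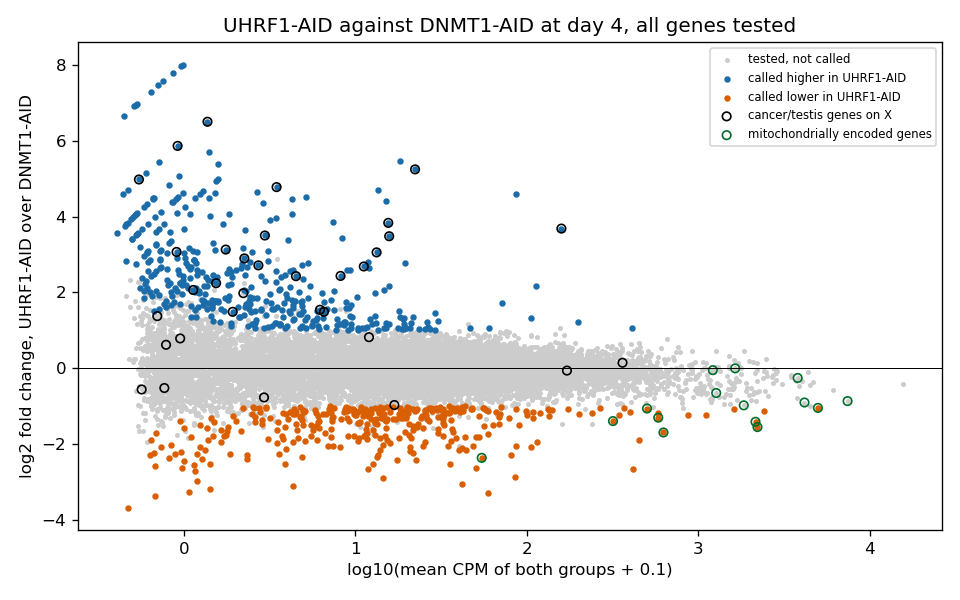
Each point is 1 of the 14080 genes tested, with the log10 of its mean level over both groups (CPM + 0.1) on the x axis and the log2 fold change of UHRF1-AID over DNMT1-AID at day 4 on the y axis. The 406 blue genes rise furthest at low levels, where most cancer/testis genes of the X chromosome (black circles) lie, and the mitochondrially encoded genes (green circles) lie at high levels at or below 0.

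The 5 genes with the smallest p among those higher in UHRF1-AID were DCAF4L1, CTAG2, GPX3, PNMA5 and MAGEA6. DCAF4L1, a retrogene related to a substrate receptor of a ubiquitin ligase, was at 35.3, 34.6 and 36.3 CPM in UHRF1-AID and at 0.998, 0.846 and 0.455 CPM in DNMT1-AID. Its log2 fold change was 5.46 ± 0.24 (adjusted p = 7.25e-06). It had no count in any WT library at day 4. CTAG2, a cancer/testis antigen, was at 34.5, 54.3 and 41.2 CPM against 0.587, 1.51 and 1.23 CPM, a log2 fold change of 5.25 ± 0.31 (adjusted p = 6.75e-05). GPX3, a secreted glutathione peroxidase, was at 24.8, 32.9 and 20.6 CPM against 1.23, 1.09 and 0.584 CPM, a log2 fold change of 4.69 ± 0.30. PNMA5, a paraneoplastic antigen family gene on the X chromosome, was at 13.9, 12.1 and 15.2 CPM against 0.704, 0.967 and 1.10 CPM, a log2 fold change of 3.85 ± 0.25. In these genes the lowest UHRF1-AID library was far above the highest DNMT1-AID library. MAGEA6, a melanoma antigen family gene, was at 21.5, 33.8 and 31.3 CPM against 2.52, 2.72 and 2.27 CPM, a log2 fold change of 3.48 ± 0.23 (adjusted p = 7.08e-05). These 5 calls held under every alternative that gave a value. MAGEA6 is nearly identical to MAGEA3, and MAGEA3 was at 170 ± 24.1 and 173 ± 13.8 CPM in the 2 groups, so reads that were shared between the copies could have moved either value.

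The 3 higher genes with the highest levels were MSX1, PDLIM5 and MAGEA4. MSX1, a homeobox transcription factor gene, was at 585, 507 and 598 CPM in UHRF1-AID and at 333, 186 and 273 CPM in DNMT1-AID, a log2 fold change of 1.05 ± 0.19 (adjusted p = 0.00918). Without DNMT1-AID replicate 2, the lowest of its group, the change was 0.85 and no longer met the fold limit. PDLIM5, a PDZ and LIM domain scaffold gene, was at 309, 180 and 347 CPM against 130, 90.5 and 132 CPM, a log2 fold change of 1.20 ± 0.24, and lost its call after removal of the length trend and without UHRF1-AID replicate 1 or DNMT1-AID replicate 2, where the adjusted p was up to 0.0692. MAGEA4 ranged more widely among the UHRF1-AID libraries, at 150, 451 and 288 CPM, but all were above the 21.4, 29.2 and 16.7 CPM of DNMT1-AID, and the log2 fold change was 3.68 ± 0.41 (adjusted p = 0.00291).

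Promoters of 4 of these strongly differing genes are shown with every CpG in capitals, because CpG is the site that UHRF1 and DNMT1 maintain; UCHL1, a neuronal deubiquitinase gene silenced in many tumours, is described further on. Each run is 300 bases from RefSeq (GRCh38.p14), read 5′ to 3′ in the direction of the gene from 250 bases before its start.
GPX3: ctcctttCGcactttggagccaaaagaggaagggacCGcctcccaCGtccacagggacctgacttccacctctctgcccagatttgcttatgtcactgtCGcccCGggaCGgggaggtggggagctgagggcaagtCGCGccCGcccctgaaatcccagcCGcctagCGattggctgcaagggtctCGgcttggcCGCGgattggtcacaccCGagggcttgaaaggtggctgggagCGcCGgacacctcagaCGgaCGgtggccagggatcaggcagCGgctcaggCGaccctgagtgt
PNMA5: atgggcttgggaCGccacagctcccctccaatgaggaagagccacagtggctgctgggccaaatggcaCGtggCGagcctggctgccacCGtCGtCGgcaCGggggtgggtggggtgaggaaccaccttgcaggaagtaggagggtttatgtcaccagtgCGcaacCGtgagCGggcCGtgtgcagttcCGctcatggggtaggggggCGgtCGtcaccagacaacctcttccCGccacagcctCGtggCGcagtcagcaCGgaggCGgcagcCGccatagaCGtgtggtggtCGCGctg
MAGEA6: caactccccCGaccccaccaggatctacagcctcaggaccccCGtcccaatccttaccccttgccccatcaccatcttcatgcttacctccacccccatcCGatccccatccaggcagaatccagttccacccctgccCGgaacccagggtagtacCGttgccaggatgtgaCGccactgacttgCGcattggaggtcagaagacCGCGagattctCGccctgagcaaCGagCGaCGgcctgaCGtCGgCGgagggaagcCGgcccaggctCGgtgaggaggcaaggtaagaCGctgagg
UCHL1: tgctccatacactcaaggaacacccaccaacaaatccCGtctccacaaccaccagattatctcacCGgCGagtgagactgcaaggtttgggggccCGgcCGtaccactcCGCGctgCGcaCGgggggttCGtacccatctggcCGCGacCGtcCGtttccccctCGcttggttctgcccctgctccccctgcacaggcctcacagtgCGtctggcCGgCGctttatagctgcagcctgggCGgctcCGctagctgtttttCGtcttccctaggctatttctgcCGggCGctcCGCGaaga

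The GPX3 window lies at chr5:151020341-151020640 on the plus strand, PNMA5 at chrX:152994067-152994366 on the minus strand, MAGEA6 at chrX:152769640-152769939 on the minus strand and UCHL1 at chr4:41256678-41256977 on the plus strand. They hold 21, 23, 19 and 25 CpG sites. Over all 27326 promoters of the same length in the table, the median was 14 and 95.8% held at least 1; CG reads the same on both strands, and the search counted each site once. Windows differed among the genes called higher: MAGEA4 held 10, TEX101, a testis protein gene, held 3, ATF5 held 3 and KRT12 held 2. They also differed among the genes called lower, where ACSL5 held 4 and CDT1 held 47. The 4 windows shown therefore do not set the higher genes apart from the lower ones. A comparison of CpG content between all genes called higher and all genes tested was void, because only 276 of the 406 genes (68.0%) had a sequence in the table, under the 80% needed. Methylation was not measured in these libraries.

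**Figure D2:**
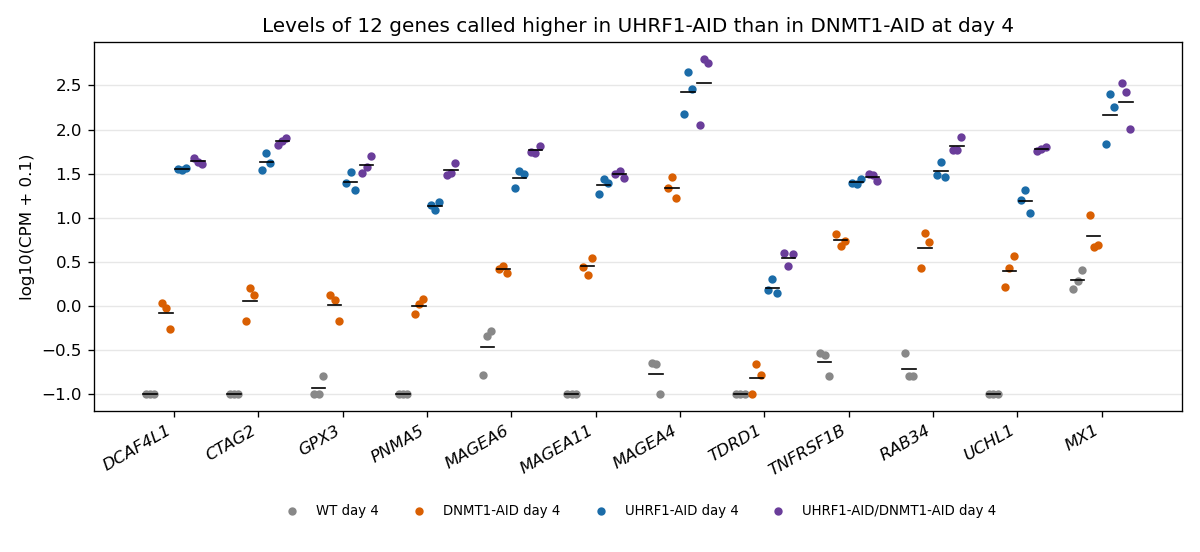
Each point is 1 library at day 4 and each black bar the mean of the 3 plotted log10 values of a group, for 12 genes called higher in UHRF1-AID than in DNMT1-AID, on a log10 scale of CPM + 0.1. Blue UHRF1-AID points lie above orange DNMT1-AID points in each gene, grey WT points lie lowest, level with 1 DNMT1-AID library for TDRD1, and purple UHRF1-AID/DNMT1-AID points lie near or above the blue.

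Germline genes made up the group with the most genes higher in UHRF1-AID. Of 124 cancer/testis genes of the X chromosome, 91 failed the filter on low counts, 57 of them with no count in any of the 6 libraries. Of the 124, 33 were tested and 22 were called higher in UHRF1-AID and 0 lower, beside 2.88% and 2.43% of all genes tested. The median log2 fold change of the 33 was 2.43. Members near 0 in DNMT1-AID, such as DDX53 with 1 count against 155, entered the test only through their level in UHRF1-AID, so the filter itself fixes part of the share among the 33 and of their median, and neither speaks for the 91. CTAG2, MAGEA6 and MAGEA11 had the smallest p. MAGEA11, which encodes a coregulator of the androgen receptor, was at 18.7, 27.3 and 25.0 CPM against 2.70, 2.17 and 3.44 CPM, a log2 fold change of 3.05 ± 0.24 (adjusted p = 0.000244). The members did not move alike. MAGEB2 was at 385 ± 59.6 CPM in UHRF1-AID and 340 ± 11.3 CPM in DNMT1-AID, and like MAGEA3 it was expressed at a similar level in WT cells, at 358 CPM. CSAG3 went the other way, at 11.5 ± 1.19 CPM against 22.1 ± 2.10 CPM (log2 fold change -0.98, adjusted p = 0.00633), short of the fold limit. The summed level of the 124 genes was 851 to 1429 CPM in UHRF1-AID, 582 to 626 CPM in DNMT1-AID, 525 to 591 CPM in WT and 1374 to 1994 CPM in UHRF1-AID/DNMT1-AID.

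Among germline genes of the autosomes, 18 of 63 were tested and 7 were called higher in UHRF1-AID, with 0 lower: TDRD1, TUBA3D, TEX101, CTCFL, DPPA5, MAEL and DAZL. Over all genes 2.88% were called higher, but here too members near 0 in DNMT1-AID passed the filter only through UHRF1-AID. Their levels were low. TDRD1, a tudor domain gene of the piRNA pathway, was at 1.41, 1.90 and 1.30 CPM in UHRF1-AID and rested on 3 counts in all DNMT1-AID libraries together, a ratio of 24.9 with an exact 95% counting interval of 8.26 to 123 (adjusted p of the fitted change 0.00402). TEX101 was at 1.12, 1.11 and 1.21 CPM against 0.176, 0.121 and 0.0649 CPM, and 6 counts in DNMT1-AID gave a ratio of 9.37 with an interval of 4.10 to 26.4. TUBA3D, a testis-enriched alpha tubulin gene, was at 1.36, 3.60 and 2.50 CPM against 0.0587, 0.121 and 0.260 CPM, a log2 fold change of 4.01 ± 0.60. TUBA3D has near-identical copies, which leaves its counts uncertain. DPPA5 had 52 counts in the UHRF1-AID libraries and 0 in the DNMT1-AID ones and was at least 13.9-fold higher, with 3 counts over the group as the floor. Intervals and floors cover counting error only. Several of these genes were higher again when both proteins were depleted, DAZL at 12.3 CPM in UHRF1-AID/DNMT1-AID against 0.789 ± 0.139 CPM in UHRF1-AID and 0.181 ± 0.119 CPM in DNMT1-AID, and TUBA3D at 17.6 CPM. DPPA5 and DAZL are singled out here after their values were seen.

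Genes known to be hypermethylated in colorectal cancer gave 4 calls among 19 tested of 44, all higher in UHRF1-AID, beside 2.88% of all genes: RAB34, UCHL1, SFRP1 and TIMP3. RAB34, a small GTPase gene of cilium formation, was at 30.8, 42.4 and 28.7 CPM in UHRF1-AID and at 2.58, 6.65 and 5.26 CPM in DNMT1-AID, a log2 fold change of 2.77 ± 0.32 (adjusted p = 0.00212). UCHL1 was at 15.9, 20.4 and 11.3 CPM against 1.53, 2.60 and 3.57 CPM, a log2 fold change of 2.60 ± 0.33 (adjusted p = 0.00248). Neither gene's groups overlapped, and WT cells at day 4 had 0 counts of UCHL1. SFRP1, a secreted Wnt antagonist gene, was at 2.39, 1.27 and 1.58 CPM in UHRF1-AID against 4 counts in all DNMT1-AID libraries together, a ratio of 21.5 with an interval of 8.15 to 80.3, so it was tested only through its level in UHRF1-AID.

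SFRP1 also belongs to the Wnt list, in which 4 of 15 tested genes were called higher and 0 lower, beside 2.88% and 2.43% of all genes. NOTUM, which encodes a Wnt deacylase and is a Wnt target, was at 146, 210 and 200 CPM against 54.2, 22.5 and 43.9 CPM, a log2 fold change of 2.17 ± 0.30 (adjusted p = 0.00526). AXIN2, a feedback inhibitor of the pathway, was at 12.5, 13.5 and 15.4 CPM against 6.22, 4.47 and 5.20 CPM, a log2 fold change of 1.34 ± 0.20. Its log2 fold change was already 0.98 ± 0.49 at day 0, though not called there. The change from day 0 to day 4 differed between the lines by only 0.38 ± 0.54 on the log2 scale. The fourth was DKK4, another secreted inhibitor. TCF7, a transcription factor of the pathway, was lower in UHRF1-AID at 14.7 ± 4.61 CPM against 27.9 ± 3.77 CPM (log2 fold change -0.96, adjusted p = 0.0241), short of the fold limit.

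Among chemokine and tumour necrosis factor genes, 4 of 22 tested were called higher and 1 lower, beside 2.88% and 2.43% of all genes. TNFRSF1B, which encodes TNF receptor 2, was at 24.9, 24.2 and 27.6 CPM in UHRF1-AID and at 6.40, 4.71 and 5.39 CPM in DNMT1-AID, a log2 fold change of 2.17 ± 0.18 (adjusted p = 0.000326). ICAM1, an adhesion molecule induced by NF-κB, was at 7.89, 5.34 and 4.87 CPM against 0.939, 1.03 and 1.36 CPM, a log2 fold change of 2.40 ± 0.30. IL32, a proinflammatory cytokine gene, was at 2.19, 5.08 and 5.10 CPM against 0.528, 0.664 and 0.520 CPM, a log2 fold change of 2.80 ± 0.42. All these values in UHRF1-AID exceeded all those in DNMT1-AID. IL32, with 9, 11 and 8 counts in the DNMT1-AID libraries, passed the filter on low counts only through its level in UHRF1-AID. The filter therefore fixes part of the share of higher calls. IL18 was lower in UHRF1-AID, at 77.2, 109 and 75.7 CPM against 123, 234 and 179 CPM (log2 fold change -1.07 ± 0.24, adjusted p = 0.0216), and at day 0 it was at 70.8 ± 4.52 CPM against 141 ± 34.1 CPM (adjusted p = 0.236).

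Few interferon-stimulated genes were called between the depletions. Of 50 tested, 3 were called higher and 0 lower, a share of higher calls to be read against 2.88% of all genes, and their median log2 fold change was 0.15. The summed level was 12756 to 24450 CPM in UHRF1-AID and 16474 to 23412 CPM in DNMT1-AID, so the groups overlapped, while WT cells at day 4 held 6632 to 7754 CPM. MX1, an antiviral GTPase gene, was the exception in size, at 68.7, 251 and 180 CPM in UHRF1-AID and at 10.6, 4.53 and 4.81 CPM in DNMT1-AID. Its log2 fold change was 4.61 ± 0.57 (adjusted p = 0.00476), and WT cells held 1.91 ± 0.508 CPM. XAF1, an XIAP-associated apoptosis factor gene, was at 2.19, 3.17 and 5.84 CPM against 1.47, 1.15 and 1.23 CPM, and RTP4, a chaperone of G protein-coupled receptors, at 0.536, 3.17 and 2.74 CPM against 0.528, 0.242 and 0.455 CPM. The lowest UHRF1-AID library barely exceeded the DNMT1-AID libraries for RTP4, and both calls were lost when any 1 DNMT1-AID library was left out. RTP4, with 9, 4 and 7 counts in the DNMT1-AID libraries, passed the filter on low counts only through its level in UHRF1-AID. IFIT1, at 692 ± 327 CPM and 571 ± 181 CPM, and ISG15, at 2617 ± 1173 CPM and 2879 ± 347 CPM, differed by less than the spread between replicates.

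The remaining higher calls of the lists were few, and each count is to be read beside the 2.88% of all genes called higher. Of 26 imprinted genes tested, 3 were called higher and 1 lower, beside 2.88% and 2.43% of all genes, and 1 higher call was left once trends with length and GC were removed. NNAT, a proteolipid gene of the developing brain, was at 1.22, 0.899 and 2.23 CPM in UHRF1-AID with 3 counts in DNMT1-AID, a ratio of 24.1 with an interval of 7.99 to 119. NAP1L5 was at 12.1, 12.7 and 13.2 CPM against 6.75, 4.47 and 6.62 CPM (log2 fold change 1.05 ± 0.20), and ZFAT was at 3.90, 4.02 and 5.24 CPM against 2.17, 1.93 and 1.75 CPM (1.12 ± 0.26). IGF2, the fetal growth factor gene, was lower, at 0.536, 0 and 0.186 CPM against 1.70, 1.69 and 2.40 CPM (log2 fold change -2.99 ± 0.66, adjusted p = 0.0186). The calls of ZFAT and IGF2 were lost when any 1 DNMT1-AID library was left out. IGF2 entered the test only through its level in DNMT1-AID. Of the 5 protocadherins tested, PCDHGA6 and PCDHAC1 were called higher, at under 4 CPM in each library, and neither call was kept by DESeq2. PCDHAC1 had a log2 fold change of 0.83 ± 0.25 at day 0, not called there. Its change from day 0 to day 4 differed between the lines by 0.31 ± 0.37. SPARC, a matricellular protein gene, and ZEB1, a repressor of epithelial genes, were the 2 of 23 epithelial-mesenchymal genes called, both higher. SPARC was at 20.3, 13.6 and 28.0 CPM against 1.76, 2.11 and 4.81 CPM (log2 fold change 2.80 ± 0.40, adjusted p = 0.00467). ZEB1 was at 2.48, 0.582 and 1.21 CPM against 0.235, 0.181 and 0.260 CPM, and its call was lost when any 1 DNMT1-AID library was left out. Like NNAT and PCDHGA6, ZEB1 was near 0 in DNMT1-AID and entered the test only through its level in UHRF1-AID. ATF5, a stress-response transcription factor gene, was the 1 call among 29 genes of the ATF4 and unfolded protein responses, at 85.5, 91.5 and 68.0 CPM against 40.8, 35.4 and 38.5 CPM (log2 fold change 1.05 ± 0.14, adjusted p = 0.00285). KRT12, a corneal keratin gene, was the 1 call among 18 keratins, at 5.70, 8.14 and 6.40 CPM against 1.70, 3.56 and 2.01 CPM (1.43 ± 0.31).

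The series also shows where the genes called higher stood in the other groups. Of the 406, 296 were under 1 CPM in WT cells at day 4, 283 in UHRF1-AID at day 0 and 292 in DNMT1-AID at day 0. In DNMT1-AID at day 4, 232 were under 1 CPM, against 51 in UHRF1-AID. Median levels were 0.104 CPM in WT, 0.634 CPM in DNMT1-AID, 3.14 CPM in UHRF1-AID and 4.24 CPM in UHRF1-AID/DNMT1-AID at day 4. Set against the midpoint between UHRF1-AID and DNMT1-AID on a log2(CPM + 0.5) scale, 350 of the 406 genes (86.2%) were on the UHRF1-AID side in UHRF1-AID/DNMT1-AID, whose libraries share the alignment folder of DNMT1-AID. In WT at day 4, which shares that folder too, 22 (5.42%) were. The part of the folder in these shares was not tested. FOS and PDLIM5 were among the exceptions: FOS, an immediate early transcription factor gene, was at 149, 109 and 198 CPM in UHRF1-AID and 68.8, 52.0 and 55.9 CPM in DNMT1-AID, but at 70.3 ± 12.6 CPM in UHRF1-AID/DNMT1-AID. By position, 44 of the 406 genes (10.8%) were on the X chromosome, which holds 3.40% of the genes tested. Of these 44, 22 were the cancer/testis genes already counted, some of which entered the test only through their level in UHRF1-AID. The share on the X chromosome is therefore not a separate result.

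The genes called lower in UHRF1-AID divided otherwise. Of the 342, 71 (20.8%) were on the UHRF1-AID side of the midpoint in UHRF1-AID/DNMT1-AID, and 133 (38.9%) in WT at day 4. Both of these groups share the alignment folder of DNMT1-AID. The EGFR and ERK list held 4 lower calls and 1 higher among 28 genes tested, beside 2.43% and 2.88% of all genes. EREG, an EGFR ligand gene, was at 286, 271 and 205 CPM in UHRF1-AID and at 540, 608 and 504 CPM in DNMT1-AID, a log2 fold change of -1.16 ± 0.15 (adjusted p = 0.00238). AREG, a second ligand, was at 155, 173 and 122 CPM against 321, 404 and 267 CPM, a change of -1.18 ± 0.18 (adjusted p = 0.00497). For both ligands the UHRF1-AID/DNMT1-AID libraries lay lower still, at 131 ± 8.22 and 126 ± 8.61 CPM, and WT cells higher than either, at 888 ± 84.6 and 456 ± 36.9 CPM. EGR1, an immediate early gene, was at 87.5, 29.8 and 72.9 CPM against 155, 170 and 133 CPM (-1.31 ± 0.33, adjusted p = 0.0378), and lost its call when any 1 of the 6 libraries was left out. MYC was the fourth.

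HMGA1, TAPBP, HLA-DRA, CDT1 and ACSL5 were also lower. HMGA1, a chromatin architectural protein gene, was at 2147, 1426 and 1086 CPM against 2591, 4586 and 2722 CPM (log2 fold change -1.13 ± 0.29, adjusted p = 0.0391), with 1345 ± 167 CPM in UHRF1-AID/DNMT1-AID. Its libraries did not overlap, yet 5 of the 6 single-library omissions ended the call. CDT1, a replication licensing factor gene and the 1 call among 61 replication genes, was at 31.2, 30.4 and 52.7 CPM against 88.0, 84.0 and 71.6 CPM (-1.13 ± 0.21, adjusted p = 0.0102). The list as a whole had a median of -0.22, with 44 of 61 members below 0. MKI67 and FOXM1, a proliferation marker and a regulator of mitotic genes, were the 2 calls among 50 mitosis genes, with a list median of -0.14. The calls of the replication and mitosis lists are to be read beside the 2.43% of all genes called lower. MKI67 was at 3.31, 5.50 and 9.65 CPM against 23.2, 21.5 and 19.7 CPM (-1.84 ± 0.32), and FOXM1 at 7.41, 10.8 and 14.7 CPM against 28.7, 20.9 and 16.1 CPM (-1.04 ± 0.28). FOXM1 lost its call when any 1 of 4 of the libraries was left out. MKI67 lost its call in the edgeR fit of all 24 libraries (adjusted p = 0.112), and its level in WT at day 4 was 8.03, 4.15 and 20.6 CPM. In bulk libraries, fewer cells in cycle and less transcript per cell cannot be told apart, nor can either be told apart from the alignment folder.

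Some of the lower genes had a fold change of like size before auxin, although it was not called there. ACSL5, a fatty acid activating enzyme gene, was at 55.8, 80.3 and 70.7 CPM in UHRF1-AID and 173, 155 and 118 CPM in DNMT1-AID at day 4 (log2 fold change -1.15 ± 0.18, adjusted p = 0.00497), and at day 0 its fold change was -1.11 ± 0.37 (adjusted p = 0.236). HLA-DRA, an MHC class II chain gene, was at 15.6, 21.3 and 10.2 CPM against 38.7, 29.7 and 40.1 CPM at day 4 (-1.25 ± 0.25, adjusted p = 0.0143), and its fold change at day 0 was -1.20 ± 0.23. The differences between the day effects of the 2 lines were -0.02 ± 0.44 for ACSL5 and -0.02 ± 0.38 for HLA-DRA. TAPBP, the tapasin gene of MHC class I loading, was the other antigen presentation call, at 96.0, 62.0 and 113 CPM against 196, 198 and 177 CPM (-1.12 ± 0.19), and its day 0 fold change was 0.43 ± 0.22.

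Mitochondrial, ribosomal and GC-rich genes were also among those lower in UHRF1-AID. GFY, which encodes a Golgi-associated olfactory signalling regulator, had the smallest p, at 1.02, 0.635 and 1.02 CPM against 7.57, 6.28 and 8.83 CPM (log2 fold change -3.11 ± 0.28, adjusted p = 0.000554). The next were MT-ATP8, RPS21, MT-CO2 and MT-ND1. MT-ATP8, a subunit of mitochondrial ATP synthase, was at 24.7, 12.7 and 17.0 CPM against 94.7, 93.5 and 84.9 CPM (-2.37 ± 0.21). RPS21, a small ribosomal subunit gene, was at 516, 574 and 507 CPM against 1063, 1276 and 1331 CPM (-1.24 ± 0.12). In each of these the groups lay far apart, and UHRF1-AID/DNMT1-AID was near the DNMT1-AID level, with 6.79 ± 1.44 CPM for GFY, 79.1 ± 9.90 CPM for MT-ATP8 and 1214 ± 166 CPM for RPS21. Of the 15 mitochondrially encoded genes listed, 8 were called lower and 0 higher, beside 2.43% and 2.88% of all genes tested. The mitochondrial chromosome as a whole held 20 of the genes tested, 10 of the lower calls and 0 of the higher calls. All 15 listed genes had a log2 fold change below 0. Their summed level was 21401 to 25290 CPM in UHRF1-AID against 41156 to 42391 CPM in DNMT1-AID and 28032 to 32114 CPM in WT. MT-ATP6 and MT-CO2 were among the 3 lower genes with the highest levels, at 1151 ± 275 CPM against 3288 ± 308 CPM and 3317 ± 213 CPM against 6679 ± 349 CPM. MT-ND1, a complex I subunit, was at 344 ± 54.5 CPM against 827 ± 76.8 CPM (-1.31 ± 0.14). Of 82 cytoplasmic ribosomal protein genes, 4 were called lower, beside 2.43% of all genes, and 79 had a fold change below 0, with a median of -0.63.

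The 342 lower genes had a median transcript GC content of 60.4%, against 51.6% for the 406 higher genes and 48.5% for all genes tested, and 61 of them (17.8%) were on chromosome 19, which holds 7.10% of the genes tested. Among 146 zinc finger genes of chromosome 19, 4 were called lower and 1 higher, close to the 2.43% and under the 2.88% of all genes. ZNF865 was at 5.36, 2.33 and 5.66 CPM against 14.5, 13.4 and 17.2 CPM (-1.79 ± 0.29), ZNF628 at 3.36, 1.85 and 3.90 CPM against 9.92, 7.91 and 7.99 CPM (-1.54 ± 0.28), and ZNF296 at 2.87, 3.28 and 6.17 CPM against 9.57, 8.52 and 9.68 CPM (-1.21 ± 0.28). These 3 genes have transcript GC contents of 70.9%, 70.8% and 67.4%, and their levels in UHRF1-AID/DNMT1-AID were 15.1 ± 2.06, 8.59 ± 0.295 and 9.22 ± 1.76 CPM. ZNF875, the 1 higher, was at 2.29, 2.54 and 2.64 CPM against 0.880, 0.967 and 1.36 CPM (1.18 ± 0.31), and at 1.29 ± 0.0887 CPM in UHRF1-AID/DNMT1-AID. FASN, the fatty acid synthase gene, followed the lower pattern at 198, 106 and 283 CPM against 653, 911 and 545 CPM (-1.89 ± 0.34, adjusted p = 0.0125) and 620 ± 92.3 CPM in UHRF1-AID/DNMT1-AID. TET3, a methylcytosine dioxygenase gene and with DNMT1 the only calls among 20 genes of the methylation machinery, was at 3.95, 2.91 and 4.04 CPM against 9.27, 8.22 and 6.56 CPM (-1.18 ± 0.23, adjusted p = 0.0113) and at 6.31 ± 0.691 CPM in UHRF1-AID/DNMT1-AID. The machinery calls, 1 in each direction, stand beside 2.88% of all genes called higher and 2.43% called lower. The part of GC content, the alignment folder and the mitochondrial share in the lower genes was not tested.

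Several calls of this section rested on single libraries. Those of TAPBP, CDT1 and ATF5 ended without UHRF1-AID replicate 2, where their log2 fold changes no longer met the limit (for TAPBP it was -0.91), and that of FASN without UHRF1-AID replicate 1. HLA-DRA and KRT12 lost theirs without DNMT1-AID replicate 1 or 3, with adjusted p up to 0.0606 and 0.0744, TET3 without replicate 1 or 2 (up to 0.111), NAP1L5 without replicate 2, and ZNF296 and ZNF875 without any 1 of the 3 (up to 0.0797 and 0.116). IL18 lost its call without UHRF1-AID replicate 1 or 3 or DNMT1-AID replicate 2 or 3. MT-CO2 fell short of the fold limit once the length trend was removed, at -0.87.

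**Figure D3:**
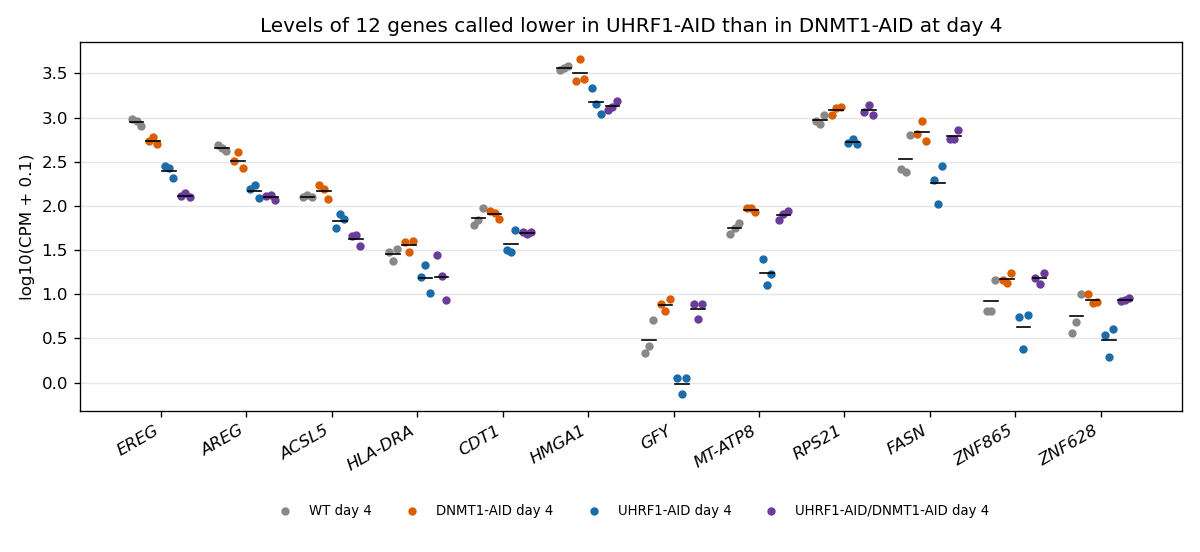
Each point is 1 library at day 4 and each black bar the mean of the 3 plotted log10 values of a group, for 12 genes called lower in UHRF1-AID than in DNMT1-AID, on a log10 scale of CPM + 0.1. The purple UHRF1-AID/DNMT1-AID points lie low with the blue UHRF1-AID points for EREG, AREG, ACSL5 and HMGA1, and high with the orange DNMT1-AID points for GFY, MT-ATP8, RPS21, FASN, ZNF865 and ZNF628.

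The methylation enzymes DNMT3A and DNMT3B were at 7.20 ± 2.47 and 8.82 ± 0.722 CPM in UHRF1-AID and at 6.75 ± 0.417 and 11.0 ± 2.00 CPM in DNMT1-AID, and TET2 at 6.05 ± 1.33 and 3.96 ± 1.03 CPM, none of them called. Of 34 p53 targets, 40 hypoxia and glycolysis genes, 5 metallothioneins, 16 replication histone genes and 4 genes derived from endogenous retroviruses, edgeR called 0 in either direction. At an unadjusted p under 0.05, 9 p53 targets, 14 hypoxia and glycolysis genes, 4 metallothioneins, 3 histone genes and 0 retroviral genes differed. These counts are to be read beside 4373 of all 14080 genes tested that met the same limit. DESeq2 called 0 in these lists except for 1 retroviral gene, higher. A p that misses the threshold does not show that the groups were alike.

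The same 2 lines were compared at day 0, where all 6 libraries share 1 alignment folder. Of 13913 genes tested, 1 was called, 0.00719% of those tested, and none higher in UHRF1-AID. It was NXT2, an mRNA export factor gene of the X chromosome, at 26.8, 30.3 and 29.1 CPM in UHRF1-AID and at 83.5, 73.0 and 62.7 CPM in DNMT1-AID (log2 fold change -1.30 ± 0.12, adjusted p = 0.0402). At an unadjusted p under 0.05, 2592 genes differed, and DESeq2 called 29 higher and 14 lower. DNMT1-AID replicate 3 at day 0 stood apart from replicates 1 and 2 of its group. Its counts gave a chi-square, divided by its degrees of freedom, of 51.1 and 63.9 against them, with 11.8 between them. Without it 1127 genes were called higher and 49 lower. The low number of calls at day 0 therefore rested on 1 library. Replicates 1 and 2 were nonetheless further from UHRF1-AID in 2 library measures. Genes with counts numbered 18630 and 18946 in them, 19816 in replicate 3 and 19558 to 19938 in UHRF1-AID. The mitochondrial shares were 1.62% and 1.47%, 2.84%, and 2.27% to 2.85%. WT replicate 3 was low too, at 18793 genes and 1.69%. Which DNMT1-AID libraries are typical of the line was not tested. At day 4 NXT2 was at 102 ± 15.9 CPM in UHRF1-AID and 119 ± 4.84 CPM in DNMT1-AID.

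The difference between the day 4 and day 0 contrasts was fitted over all 12 libraries, and asks which genes changed by a different amount in the 2 lines. UHRF1-AID kept 1 alignment folder at both days, whereas DNMT1-AID changed folder between them. The folder and the line therefore cannot be told apart in this contrast either. Of 14892 genes, 39 (0.262%) had a day effect called higher in UHRF1-AID and 70 (0.470%) lower. Same-numbered UHRF1-AID libraries deviated together across the 2 days, with correlations of 0.288, 0.176 and 0.156, while those of DNMT1-AID did not, at -0.115, -0.170 and -0.071. With the replicate number as a block within each line the counts were 8 and 4, and with 1 replicate block over both lines 44 and 224, so the number of genes depended on how the pairing was modelled. MAGEA6 was at 0.126 ± 0.129 CPM in UHRF1-AID and 0.419 ± 0.145 CPM in DNMT1-AID at day 0, and the difference of its day effects was 5.17 ± 0.67 on the log2 scale (adjusted p = 0.00815). MAGEA6 was also called with the block within each line (adjusted p = 0.0381). MAGEA11, GPX3, SPARC, ATF5 and NXT2 were called higher without a block, and MT-ATP8, MT-CO2, TAPBP, CDT1 and EGR1 lower. These 10 calls were lost with the block within each line, where the adjusted p lay between 0.0687 and 0.108. Without DNMT1-AID replicate 3 at day 0, which left the 2 libraries further from UHRF1-AID in the measures above, the counts were 113 and 1029. Without DNMT1-AID replicate 2 at day 4 the counts were 4 and 3.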

How the data were processed

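Per the file headers and the study's methods, the authors made polyA libraries with a NEBNext Ultra RNA kit, used Trimmomatic for trimming and STAR for alignment to hg38, and deposited raw counts per Ensembl gene from featureCounts, 1 table per library. Strand use in counting is not given in the sources used here, so genes that overlap, run antisense or have close copies are uncertain. Spike-in rows entered neither library sizes nor tests. From the deposited counts, genes were filtered by filterByExpr, scaled by TMM and tested by edgeR 4.0.16 (R 4.3.3, quasi-likelihood, robust, Benjamini-Hochberg), the 6 libraries of a comparison at a time. On simulated counts for the day 4 comparison (13855 genes), 100% of 200 changed genes were called, with 1 unchanged gene. The changed genes were drawn above a limit on level and changed by more than the fold limit. All genes had the same dispersion, with no length trend and no library that stood apart. The recovery therefore does not speak for weakly expressed genes, for smaller changes or for the spread of the real libraries. Named genes were the tagged genes, the 5 called genes with the smallest p and the 3 with the highest level in each direction, and up to 3 called members per list and direction with the smallest p, with libraries that do not overlap; at day 0, up to 3 in each direction. Lists of mitochondrial, ribosomal and histone genes and cell markers were summarised only. The comparison and lists were chosen with earlier results of these data known. RefSeq promoters matched 44 of 60 named genes by symbol and chromosome. The alternatives were RLE scaling, other filters, all 24 libraries, a replicate block (for the day effects also within each line, since UHRF1-AID libraries of 1 number deviated together across days), DESeq2 1.42.0, other thresholds, trends with gene length or with length and GC removed, and each library left out.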

Additional observations from a re-analysis of the deposited data

Results flagged for a closer look

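The difference between the 2 lines in their day effect was tested by the interaction term over 12 libraries, and it separated 39 genes upward and 70 downward in UHRF1-AID. Only DNMT1-AID changed alignment folder between the days, so the folder and the line cannot be told apart in this difference. Named genes with such a difference were GPX3 (4.48 on the log2 scale), MAGEA6 (5.17), MAGEA11 (8.17), SPARC (2.80), ATF5 (1.04) and NXT2 (1.06), with a larger rise or smaller fall in UHRF1-AID. With the replicate number as a block within each line only MAGEA6 among these named genes was still called, at 5.20. In the opposite direction were MT-ATP8 (-3.18), MT-CO2 (-1.18), TAPBP (-1.52), CDT1 (-1.72) and EGR1 (-2.65). MAGEA11 had no count in UHRF1-AID at day 0, so its fitted value depends on the prior count. For EGR1 the fitted fold changes had opposite signs at the 2 times, with 158 ± 32.7 CPM in UHRF1-AID and 63.0 ± 25.5 CPM in DNMT1-AID at day 0. The day 0 difference was not called (adjusted p = 0.236 in edgeR), and the day 4 call was lost when any 1 library was left out. NXT2 was the gene that differed at day 0.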

How the results depend on the processing

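At day 4 the genes called higher and lower numbered 678 and 393 with no filter, 188 and 309 with at least 10 counts in every library, 186 and 116 at an adjusted p under 0.01, and 956 and 998 with no minimum fold. Leaving out 1 library gave 242 to 583 higher and 158 to 339 lower. At day 0, against 0 higher and 1 lower, no filter gave 138 and 40, DESeq2 29 and 14, all 24 libraries 0 and 5, removal of the length and GC trend, chosen after seeing the data, 0 and 2, and an adjusted p under 0.01 gave 0 and 0; leaving out 1 library gave 0 to 1127 and 0 to 49. For the day effects, RLE scaling gave 59 and 116, no filter 192 and 767, at least 10 counts in every library 21 and 66, all 24 libraries 113 and 269, DESeq2 160 and 484, removal of the length trend 95 and 416, of length and GC 154 and 440, an adjusted p under 0.01 4 and 2, and no minimum fold 79 and 93; leaving out 1 library gave 4 to 113 and 3 to 1029. The replicate block gave 306 and 253 at day 4, 0 and 0 at day 0, and 44 and 224 for the day effects; the block within each line, chosen after seeing the data, gave 8 and 4 for the day effects. Between the lines, correlations of same-numbered deviations were -0.138, -0.132 and -0.055 at day 4, so the numbers do not pair the lines, whereas UHRF1-AID libraries pair across days (0.288, 0.176 and 0.156). The cause of these shifts was not tested. Of 58 named genes called at day 4, 24 were called under all 14 alternatives that refitted the data, 8 more under the 13 that gave them a value, and none changed direction. The other thresholds were not among these 14. Of the 406 higher genes, 225 were also called without DNMT1-AID replicate 2, and of the 342 lower genes 148. Weakly expressed genes rest on few counts, and 3 libraries per group limit the precision.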
